A study of Danio rerio with 27 samples.

Results

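The genes sele, aoc2 and f8 were followed through liver cells sorted from adult zebrafish. They are 3 of the 18336 genes with values in the series, under the identifiers ENSDARG00000009123 (sele), ENSDARG00000014646 (aoc2) and ENSDARG00000101385 (f8). They were chosen by their measured values, as endothelial surface and clotting genes with high expression values in control endothelial cells and low ones in the thioacetamide (TAA) libraries of that cell type, so those values are given here as a description without a test. RNA was sequenced from 27 libraries in 9 groups of 3, each library prepared from 100000 sorted cells.

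The cells came from adult females of 3 transgenic lines on the AB background. mCherry under the kdrl promoter marked endothelial cells (ECs), dsRed under the fabp10a promoter marked hepatocytes (HEPs), and EGFP under the hand2 promoter marked hepatic stellate cells (HSCs). Each line gave reporter-positive cells of TAA-treated fish, reporter-positive cells of control fish and reporter-negative cells of control fish. TAA, a compound that injures the liver once hepatocytes oxidise it, was injected at 500 mg/kg, 6 times over 2 weeks. Control fish received sterile water according to the labels, while the methods also name saline. Reporter-negative cells of TAA-treated fish are not analysed here. The labels number the replicates and do not say whether they came from separate fish, and the methods count fewer control fish than there are reporter-positive control libraries. Unless other fish were used, the control replicates cannot all be separate fish, so the p-values measure the spread between these libraries, part of which may be technical, and may be too small.

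The 3 genes encode proteins of the vessel lining and of the clotting system. E-selectin, the product of SELE in mammals, is an adhesion receptor that inflamed endothelium displays to slow passing leukocytes, which carry glycan-bearing ligands such as P-selectin glycoprotein ligand. AOC2 and AOC3 in mammals are copper-containing amine oxidases, and AOC3, also called vascular adhesion protein, sits on the endothelial surface, in liver sinusoids among other places, and takes part in lymphocyte adhesion. The zebrafish row carries the symbol aoc2 in the study's table and AOC3 in the gene name table used here, so these mammalian genes are not told apart for it. Factor VIII, the product of F8, is the cofactor that lets activated factor IX activate factor X. In mammals it is made mainly by endothelial cells, those of the liver sinusoids in particular, and it circulates bound to von Willebrand factor.

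All values are the regularized logarithms (rlog) of read counts that the authors deposited, on the log2 scale, with library size taken out. They are not divided by gene length, so a value is compared between libraries for 1 gene and never between genes. The depth of the libraries cannot be read from such values. The rlog also pulls genes with few reads towards their mean, so differences of genes at low levels are understated. Each library's median over all genes lay between 3.35 and 4.12.

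Some libraries went against their labels or stood apart, and every result below that touches them is to be read with this. The 3 libraries labelled EC TAA had kdrl, the vascular endothelial growth factor receptor gene whose promoter drives the reporter of that line, at 2.05, 2.64 and 2.07, against 12.74, 12.78 and 12.51 in the EC control libraries. Even the HEP and HSC libraries had more of it, between 3.18 and 6.35. The mean of 16 endothelial markers was 0.38 to 0.77 in the libraries labelled EC TAA and 8.47 to 8.78 in EC control libraries, and 6 of the 16 markers averaged 0 or less in the libraries labelled EC TAA. The mean of 11 hepatocyte markers was 12.41 to 13 in the libraries labelled EC TAA, 8.01 to 9.2 in EC control libraries and 11.67 to 12.17 in HEP control libraries. The mean of 7 leukocyte markers was 1.31 to 1.79 in the libraries labelled EC TAA and 8.24 to 8.44 in EC control libraries. Among the reporter-negative libraries, EGFP-negative replicate 3 had kdrl at 10.31 and fabp10a, a hepatocyte gene, at 7.57, while its other replicates had fabp10a at 14.29 and 14.47. mCherry-negative replicate 1 had kdrl at 9.44, against 5.34 and 6.79 in the other replicates of its group. The transcript of hand2 itself was between 1.78 and 2.8 in HSC TAA libraries and between -0.13 and 1.39 in HSC control libraries, so the label of the HSC libraries rests on their EGFP sort. The hepatocyte marker mean was 11.06 to 11.99 in HSC control libraries. The mean of 9 stellate markers was 3.65 to 4.27 in HSC TAA libraries and 1.13 to 2.39 in HSC control libraries. It was 1.32 to 1.52 in HEP control libraries and 1.49 to 2.38 in dsRed-negative libraries. HSC control and HEP control libraries thus overlapped in both marker means. In bulk samples such as these, fewer cells of a type and less RNA per cell cannot be told apart.

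sele was high in control endothelial cells and nearly absent from the TAA libraries of the same label. Its rlog values were 1.18, 0.90 and 1.06 in the libraries labelled EC TAA, against 10.26, 10.16 and 10 in EC control libraries. The groups did not overlap, and the replicates of each group lay close together. The difference of the means was -9.09 ± 0.43 (SE, n = 3 each), which is 545-fold on this scale.

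aoc2, the amine oxidase gene, showed the same order. It was at 2.97, 2.76 and 3.44 in the libraries labelled EC TAA, against 13.16, 12.96 and 12.9 in EC control libraries. The difference was -9.95 ± 0.31 (SE, n = 3 each), and of all 18336 genes only 1 had a larger negative difference in this comparison.

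f8, the gene of the clotting cofactor, was at 2.0, 1.95 and 1.63 in the libraries labelled EC TAA, against 11.63, 11.74 and 11.53 in EC control libraries. The difference was -9.78 ± 0.52 (SE, n = 3 each), the third most negative of all genes, with sele at place 18. Non-overlap in this direction was common in this comparison, where 36.6% of all genes were lower in every library labelled EC TAA than in every EC control library. The kdrl, endothelial and leukocyte marker levels given above were also lower in the libraries labelled EC TAA, while the hepatocyte marker levels were higher. The part of all these markers in the 3 differences was not tested. The median difference over all genes was -0.25. Library medians averaged 3.46 in the libraries labelled EC TAA and 4.03 in EC control libraries, and centring each library on its median gave differences of -8.51 for sele, -9.37 for aoc2 and -9.2 for f8.

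**Figure D1:**
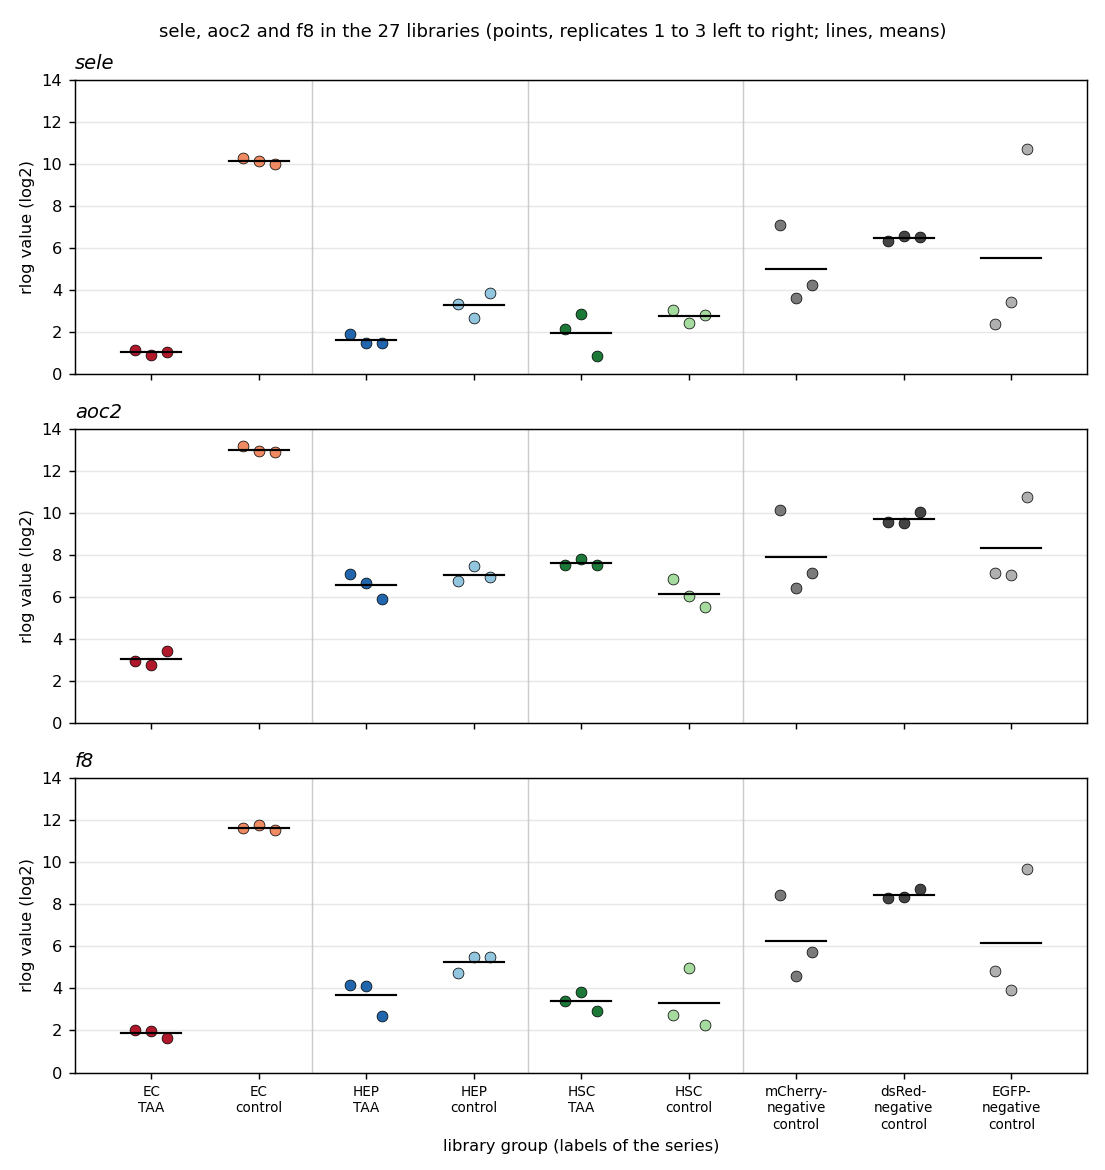
Regularized log2 values (y axis) of sele, aoc2 and f8 in the 9 library groups (x axis), with 1 point per library and a line at each group mean. The 3 EC control libraries lie at 10 or higher for every gene, the libraries labelled EC TAA lie at 3.44 or lower, and EGFP-negative replicate 3 stands far above the other 2 replicates of its group.

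The libraries labelled EC TAA held less aoc2 and f8 than every other library of the series. Their highest aoc2 value was 3.44, while the lowest among the other 24 libraries was 5.55, and for f8 the corresponding values were 2.0 and 2.24. sele reached 1.18 in them, and 1 other library was below that, HSC TAA replicate 3 at 0.87. The members were chosen for low values in the libraries labelled EC TAA, and the share of all genes with such an order was not counted. Set against the mean of HEP and HSC libraries of TAA-treated fish, the libraries labelled EC TAA differed by -0.75 ± 0.37 for sele, -4.04 ± 0.27 for aoc2 and -1.67 ± 0.45 for f8 (SE, 3 against 6 libraries). In control fish the same contrast ran the other way, with EC libraries higher by 7.10 ± 0.30 for sele, 6.40 ± 0.27 for aoc2 and 7.37 ± 0.46 for f8. The sign of EC against the other sorted types was thus positive in control fish and negative in TAA-treated fish for all 3 genes, though for sele in TAA-treated fish the difference was -0.3, within its SE, after quantile normalization.

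The members differed more between these groups than the mean of the endothelial markers did, which is not particular to them, since kdrl, itself a marker, averaged 2.25 in the libraries labelled EC TAA and 12.67 in EC control libraries. Within each library the mean of the 16 endothelial markers was subtracted from the value of the gene. For aoc2 this left 2.43 ± 0.35 in the libraries labelled EC TAA and 4.36 ± 0.08 in EC control libraries (SD, n = 3 each). For f8 it left 1.23 ± 0.38 in the libraries labelled EC TAA and 2.99 ± 0.12 in EC control libraries. For sele it left 0.42 ± 0.34 in the libraries labelled EC TAA and 1.5 ± 0.02 in EC control libraries. The comparison shares its libraries with the choice of the genes and has no test. In the libraries labelled EC TAA 6 of the 16 markers averaged 0 or less, and the rlog understates differences at such levels. A further fall of the members beyond that of the markers is thus not shown.

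The other sorted types had lower levels of these genes than control ECs, and there the response to TAA was tested. The values named in the choice of the members were those of the EC libraries. The members were still chosen as endothelial genes with earlier results of these data known. The p-values in HEPs and HSCs are thus not fully separate from that choice. In HEPs, sele was at 1.9, 1.49 and 1.51 in TAA libraries, against 3.34, 2.67 and 3.87 in control libraries. The groups did not overlap, as was the case in this direction for 17.9% of all genes. sele fell in HEPs by 1.66 ± 0.43 on the log2 scale (SE, n = 3 each, limma, adjusted p = 0.023 over all genes), where 5.27% of genes were called lower. That call rested on the estimate of spread from all 18 reporter-positive libraries, which include those labelled EC TAA. With only the 6 HEP libraries fitted the adjusted p was 0.078, with all 27 libraries fitted it was 0.56, and without HEP control replicate 1, HEP control replicate 3, HEP TAA replicate 2 or HEP TAA replicate 3 it was 0.053, 0.095, 0.079 and 0.08.

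f8 in HEPs was at 4.16, 4.13 and 2.69 in TAA libraries, against 4.72, 5.49 and 5.49 in control libraries. These groups did not overlap either, yet the difference of -1.57 ± 0.52 did not pass the threshold (limma, adjusted p = 0.072). aoc2 was at 7.10, 6.69 and 5.92 in HEP TAA libraries and at 6.75, 7.47 and 6.96 in HEP control libraries, which overlapped, with a difference of -0.49 ± 0.31 (adjusted p = 0.39). Of the 16 endothelial markers 3 were also called lower in HEPs, where 5.27% of all genes were. All 16 had a negative difference there, with a median of -1.16 against a median of -0.02 over all genes. Their mean was 0.93 to 1.62 in HEP TAA libraries and 2.13 to 2.59 in HEP control libraries. The part of these markers in the fall of sele was not tested.

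In HSCs aoc2 rose with TAA. It was at 7.53, 7.82 and 7.51 in HSC TAA libraries, against 6.87, 6.04 and 5.55 in HSC control libraries. The groups did not overlap, as was the case in this direction for 12.7% of all genes. aoc2 rose in HSCs by 1.47 ± 0.31 (SE, n = 3 each, limma, adjusted p = 0.0067), where 4.26% of genes were called higher. The adjusted p was 0.032 when only the 6 HSC libraries were fitted and 0.31 when all 27 libraries were fitted.

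The endothelial markers were at low levels in the HSC libraries, and their differences had the opposite sign to that of aoc2. Their mean was 1.30 to 1.33 in HSC TAA libraries and 1.85 to 2.47 in HSC control libraries, and 4 of the 16 averaged 0 or less in HSC TAA libraries. All 16 had a negative difference, and none of them was called. Stellate markers moved with aoc2, with 7 of 9 called higher in HSC TAA libraries, where 4.26% of all genes were. Their list mean was 3.65 to 4.27 in HSC TAA libraries and 1.13 to 2.39 in HSC control libraries. The median difference of that list was 1.82 against -0.06 over all genes. Leukocyte markers moved the opposite way, with 6 of 7 called lower in HSCs, where 3.94% of all genes were. The part of these cell type markers in the rise of aoc2 was not tested.

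sele and f8 did not change detectably in HSCs. sele was at 2.17, 2.87 and 0.87 in HSC TAA libraries and at 3.08, 2.46 and 2.81 in HSC control libraries, a difference of -0.81 ± 0.43 (limma, adjusted p = 0.26). f8 was at 3.42, 3.82 and 2.94 in HSC TAA libraries and at 2.73, 4.96 and 2.24 in HSC control libraries, a difference of 0.08 ± 0.52 (adjusted p = 0.94). Both pairs of groups overlapped.

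The response of aoc2 differed between HSCs and HEPs. The change with TAA was 1.95 ± 0.44 larger in HSCs than in HEPs (limma interaction, adjusted p = 0.018), and 2.15% of genes were called in that direction. In a fit of the 12 HEP and HSC libraries only, without the endothelial ones, the adjusted p was 0.046. It was 0.50 with all 27 libraries fitted, 0.054 without HEP control replicate 2, 0.053 without HEP TAA replicate 3 and 0.058 without HSC TAA replicate 2. The same contrast was 1.65 ± 0.73 for f8 (adjusted p = 0.27) and 0.85 ± 0.61 for sele (adjusted p = 0.55), so a difference in response was not shown for these genes. Without HSC control replicate 2, whose f8 value was the highest of its group, the f8 contrast was 2.48 with an adjusted p of 0.015. HSC control and HEP control libraries overlapped in their stellate and hepatocyte marker means, while the stellate marker mean was higher in HSC TAA libraries. The part of these markers in the differences in response was not tested.

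**Figure D2:**
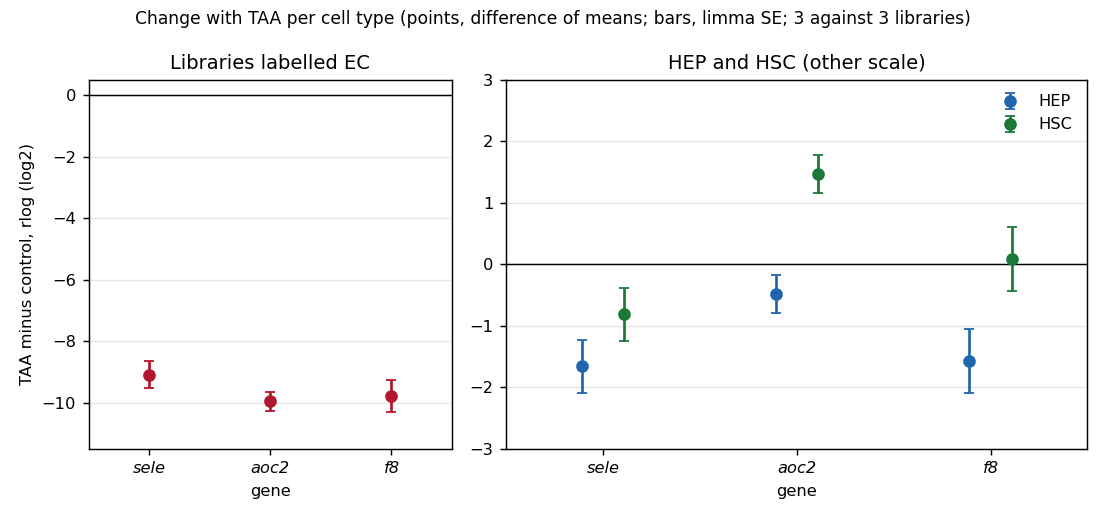
TAA minus control difference of mean regularized log2 values (y axis) for sele, aoc2 and f8 (x axis), with bars for the limma SE and 3 libraries per group, on a separate scale for the libraries labelled EC. aoc2 lies at -9.95 for the libraries labelled EC, at -0.49 in HEPs and at 1.47 in HSCs.

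Control HEPs and HSCs did not differ detectably in any of the 3 genes. f8 was 1.92 ± 0.53 higher in HEP than in HSC control libraries (limma, adjusted p = 0.078), aoc2 was 0.90 ± 0.31 higher (adjusted p = 0.15) and sele 0.51 ± 0.35 higher (adjusted p = 0.49), with overlapping values for each gene. HEP libraries were called higher for 1.79% of all genes. The f8 difference passed the threshold, at 2.75 with an adjusted p of 0.0043, without HSC control replicate 2, and the aoc2 difference, at 1.26 with an adjusted p of 0.037, without HSC control replicate 1.

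For each of the 3 genes, the means of the reporter-negative control groups lay above those of the HEP and HSC control groups and below that of the EC control group, but single libraries did not all do so. These groups hold the liver cells that the sort for 1 reporter left behind. sele was at 3.34, 2.67 and 3.87 in dsRed-positive libraries, which are the HEP control libraries, against 6.36, 6.57 and 6.52 in dsRed-negative libraries. aoc2 was at 6.75, 7.47 and 6.96 in dsRed-positive libraries, against 9.55, 9.54 and 10.05 in dsRed-negative libraries. f8 was at 4.72, 5.49 and 5.49 in dsRed-positive libraries, against 8.29, 8.34 and 8.7 in dsRed-negative libraries. Every dsRed-positive library was below every dsRed-negative library for each gene, as was the case for 13.7% of all genes. The dsRed-positive minus dsRed-negative difference was -3.19 ± 1.41 for sele, -2.66 ± 0.86 for aoc2 and -3.21 ± 1.13 for f8, and none passed the threshold in the fit of all 18 control libraries (limma, adjusted p = 0.42, 0.18 and 0.24), where 0.529% of genes were called lower. That fit shares 1 estimate of the spread with the EGFP-negative and mCherry-negative libraries, 2 of which stood apart. With only the 6 dsRed libraries fitted, all 3 genes were called lower in dsRed-positive cells, with adjusted p of 0.00077 for sele, 0.00018 for aoc2 and 0.00014 for f8, where 4.35% of genes were called in that direction. The members were chosen as endothelial genes, and a sort for dsRed leaves endothelial cells among the negative cells. This direction thus follows in part from the choice, and these p-values are no separate support. The endothelial marker mean was 2.13 to 2.59 in HEP control libraries and 5.63 to 5.83 in dsRed-negative libraries, and all 16 markers were lower in the dsRed-positive cells. fabp10a differed little between them, at 14.12, 13.58 and 13.8 in HEP control libraries and at 13.43, 13.87 and 13.91 in dsRed-negative libraries.

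sele was at 10.26, 10.16 and 10 in mCherry-positive libraries, which are the EC control libraries, against 7.09, 3.63 and 4.27 in mCherry-negative libraries. aoc2 was at 13.16, 12.96 and 12.9 in mCherry-positive libraries, against 10.14, 6.42 and 7.15 in mCherry-negative libraries. f8 was at 11.63, 11.74 and 11.53 in mCherry-positive libraries, against 8.44, 4.58 and 5.75 in mCherry-negative libraries. The groups did not overlap for any of the genes, and mCherry-negative replicate 1 was the highest of its group for each. The mCherry-positive minus mCherry-negative difference was 5.14 ± 1.41 for sele, 5.10 ± 0.86 for aoc2 and 5.38 ± 1.13 for f8, and without mCherry-negative replicate 1 it was 6.19, 6.22 and 6.47. In this comparison 30.4% of all genes were higher in every positive than in every negative library.

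sele was at 3.08, 2.46 and 2.81 in EGFP-positive libraries, which are the HSC control libraries, against 2.38, 3.43 and 10.72 in EGFP-negative libraries. aoc2 was at 6.87, 6.04 and 5.55 in EGFP-positive libraries, against 7.17, 7.07 and 10.75 in EGFP-negative libraries. f8 was at 2.73, 4.96 and 2.24 in EGFP-positive libraries, against 4.81, 3.93 and 9.68 in EGFP-negative libraries. EGFP-negative replicate 3 was the highest for each gene, and its sele value was above those of all 3 EC control libraries, the only library outside that group of which this was true. The EGFP-positive minus EGFP-negative difference was -2.73 ± 1.41 for sele, -2.18 ± 0.86 for aoc2 and -2.83 ± 1.13 for f8 (limma, adjusted p = 0.50, 0.40 and 0.41). Without EGFP-negative replicate 3 it was -0.12 for sele, -0.97 for aoc2 and -1.06 for f8. No gene of the series was called in that comparison (0% in either direction by limma, with 1954 genes at an unadjusted p under 0.05), and the groups did not overlap for aoc2, as was so in this direction for 4.89% of all genes.

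Among reporter-negative cells, dsRed-negative libraries had the highest group means of the 3 genes. The dsRed-negative minus mCherry-negative difference was 1.49 ± 1.41 for sele, 1.81 ± 0.86 for aoc2 and 2.19 ± 1.13 for f8 (limma, adjusted p = 0.81, 0.49 and 0.55), and 0.496% of all genes were called. With both mCherry-negative replicate 1 and EGFP-negative replicate 3 left out, a choice made after their marker levels were seen, it was 2.53 for sele, 2.93 for aoc2 and 3.28 for f8. The adjusted p of that limma fit was 0.00063, 6.1e-05 and 0.0015, where 2.71% of genes were called in that direction. mCherry-negative replicate 1 was the highest of its group for each gene, so leaving it out raises the difference by itself. These p-values are therefore no separate support. The EGFP-negative minus mCherry-negative difference was 0.51 ± 1.41 for sele, 0.43 ± 0.86 for aoc2 and -0.12 ± 1.13 for f8 (adjusted p = 0.94, 0.91 and 0.99), and 1.46% of all genes were called.

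Ordered by group mean, EC control libraries were first for every gene, at 10.14 ± 0.13 for sele, 13.01 ± 0.14 for aoc2 and 11.64 ± 0.10 for f8 (SD, n = 3 each). dsRed-negative libraries came next and libraries labelled EC TAA last for every gene. For sele, the EGFP-negative, mCherry-negative, HEP control, HSC control, HSC TAA and HEP TAA libraries followed in that order, and from dsRed-negative to HEP TAA each group overlapped the next, while HEP TAA libraries did not overlap those labelled EC TAA. For aoc2, HSC TAA libraries did not overlap HEP control libraries, the next group below, and HSC control libraries did not overlap those labelled EC TAA. For f8 the values of HEP control and HEP TAA libraries were separate, as were those of HSC control libraries and libraries labelled EC TAA. Non-overlap was common over all genes, at 17.9% for HEP TAA below HEP control libraries. The share was not counted for the other neighbouring groups named here, so these non-overlaps are not shown to be particular to the 3 genes.

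**Figure D3:**
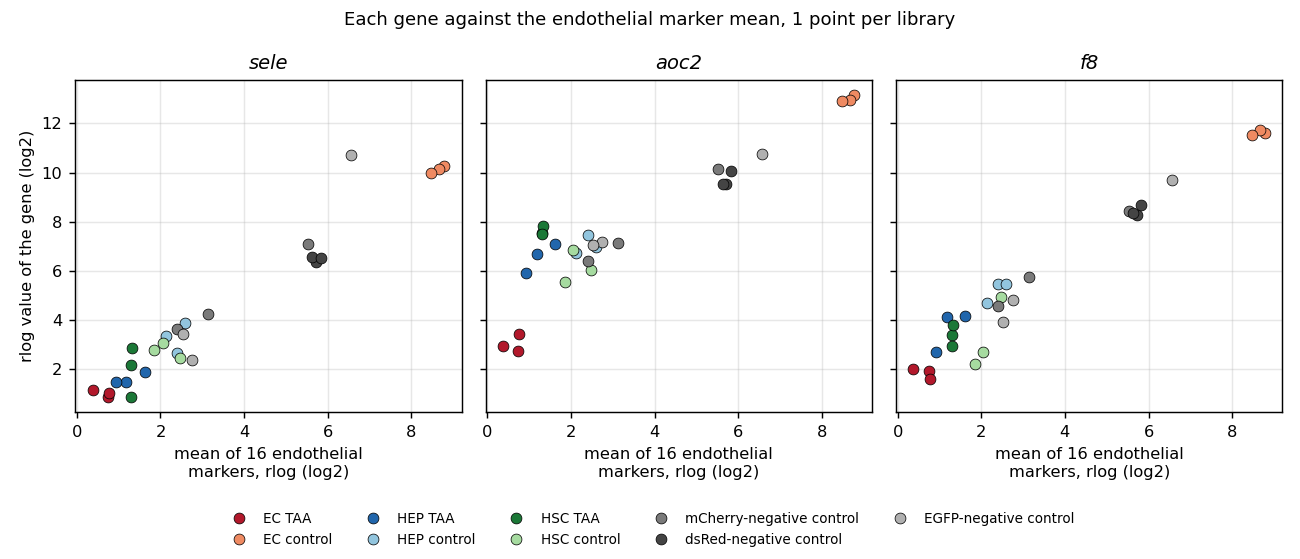
Regularized log2 value of sele, aoc2 and f8 (y axis) against the mean of 16 endothelial markers in the same library (x axis), with 1 point per library coloured by group. sele and f8 are higher where the marker mean is higher, from the libraries labelled EC TAA up to EC control, with EGFP-negative replicate 3 above the rest for sele, and the HSC TAA libraries lie above the other low-marker libraries for aoc2.

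The genes whose values ran most like those of the members over the 27 libraries were ranked by Pearson correlation, which is given as a description, since the libraries share cell types, line and treatment. Most like sele were sox18 (Pearson 0.977, Spearman 0.918), which encodes a transcription factor of developing vessels, the semaphorin gene sema3aa (0.973 and 0.942), the tight junction gene cldn5b (0.970 and 0.858), the endothelial GTPase partner rasip1 (0.968 and 0.863) and sema7a (0.965 and 0.834). Most like aoc2 were sptbn1 (0.980 and 0.911), a spectrin of the membrane skeleton, ahnak (0.978 and 0.953), myo1cb (0.972 and 0.924), a class I myosin, tns2a (0.964 and 0.879), a tensin of focal adhesions, and the Notch receptor gene notch1b (0.961 and 0.845). Most like f8 were oit3 (0.987 and 0.959), which in mouse liver is expressed by sinusoidal endothelial cells, rasip1 (0.983 and 0.962), kdrl (0.982 and 0.966), ENSDARG00000107130, which has no symbol (0.981 and 0.965), and myo1hb (0.981 and 0.942). The genes of the f8 list were largely the same under Spearman's measure, with 4 of 5 shared, whereas 1 of 5 was shared for sele and 1 of 5 for aoc2. Between the members the Pearson correlation was 0.954 for sele and f8, 0.935 for aoc2 and f8 and 0.901 for sele and aoc2. Among the 18335 genes ranked for each member, f8 was at place 24 for sele and 55 for aoc2. sele was at place 79 for f8 and 196 for aoc2, and aoc2 at place 195 for f8 and 416 for sele. With the mean of the 16 endothelial markers the correlation was 0.979 for f8, 0.971 for sele and 0.924 for aoc2. The genes sox18, cldn5b and kdrl named above are among those markers. The members were chosen for high values in EC control libraries and low ones in the libraries labelled EC TAA. These correlations thus follow in part from the choice. A second row, ENSDARG00000042138, carries the symbol SELE in capitals and was low throughout, between -0.34 and 3.32. Whether reads are shared between it and sele is uncertain, because the counting of reads with several matches is not given in the sources used here.

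Most of the clotting genes around f8 did not share its pattern. Of 29 matched genes of a coagulation list, 20 were called higher and 6 lower in the libraries labelled EC TAA than in EC control libraries (limma), where 19.7% and 31.5% of all genes were called in those directions. The median difference of the list was 4.06, against -0.25 over all genes. The 4 largest rises were those of prozb, the protein Z gene, at 5.36 ± 0.51, cpb2, which slows fibrinolysis, at 4.58 ± 0.26, the fibrinogen chain gene fga at 4.56 ± 0.28 and serpind1, the heparin cofactor, at 4.54 ± 0.33. Their products are plasma proteins that the liver secretes. The 4 largest falls were those of f13a1b, the subunit of the enzyme that crosslinks fibrin, at -5.86 ± 0.47, the urokinase gene plaua at -5.66 ± 0.34, the anticoagulant protein S gene pros1 at -4.53 ± 0.52 and vwf, whose product carries factor VIII, at -3.94 ± 0.43. The largest adjusted p among them was 3.3e-07, for pros1. The coagulation list, and the adhesion and amine oxidase lists used below, were written with earlier results of these data known. Their calls and p-values in this comparison are thus not fully separate from that choice. The hepatocyte markers given above, among them fgb, which is on both lists, were all 11 called higher in the same comparison. Their part in the rise of the clotting genes was not tested.

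The direct partners of factor VIII split the same way. vwf averaged 3.33 ± 0.44 in the libraries labelled EC TAA and 7.26 ± 0.33 in EC control libraries (SD, n = 3 each). The 2 subunits of the receptor that exports factors V and VIII from the endoplasmic reticulum were higher in the libraries labelled EC TAA, with lman1 at 8.31 ± 0.55 in those libraries and 5.21 ± 0.33 in EC control libraries, and mcfd2 at 9.42 ± 0.59 in the libraries labelled EC TAA and 6.48 ± 0.44 in EC control libraries. The homologous cofactor gene f5 averaged 12.25 ± 0.43 in the libraries labelled EC TAA and 8.19 ± 0.58 in EC control libraries. f9a, the protease that factor VIII assists, averaged 7.70 ± 0.11 in the libraries labelled EC TAA and 3.57 ± 1.14 in EC control libraries, and f10, the substrate of that complex, averaged 10.22 ± 0.22 in the libraries labelled EC TAA and 6.78 ± 0.73 in EC control libraries. All 6 of these genes were called between the libraries labelled EC TAA and EC control libraries, where 19.7% of all genes were called higher and 31.5% lower. None of them was called in HEPs or HSCs, where few genes were called at all. The shares called higher and lower there were 2.13% and 5.27% in HEPs and 4.26% and 3.94% in HSCs. f9b was not matched.

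In HEPs 2 of the 29 clotting genes were called lower and none higher, where 5.27% and 2.13% of all genes were called. In HSCs 2 were called higher and 2 lower, where 4.26% and 3.94% of all genes were called. Named after their values were seen, these were plaua (-2.04 ± 0.34, adjusted p = 0.0012) and f3a (-1.73 ± 0.40, adjusted p = 0.011) in HEPs. In HSCs they were f3b (2.28 ± 0.51, adjusted p = 0.0087), f3a (1.79 ± 0.40, adjusted p = 0.0089), plaua (-1.98 ± 0.34, adjusted p = 0.0014) and f13a1b (-1.81 ± 0.47, adjusted p = 0.022). f3a and f3b encode tissue factor, which starts clotting. With only the HSC libraries fitted, 0 clotting genes were called higher in HSCs, so the calls of f3a and f3b in HSCs were lost there. With all 27 libraries fitted, 0 were called lower in HEPs and 0 lower in HSCs. The calls of plaua and f3a in HEPs and of plaua and f13a1b in HSCs were thus lost in that fit. The median difference of the list was 0.18 in HEPs and 0.25 in HSCs, against -0.02 and -0.06 over all genes.

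**Figure D4:**
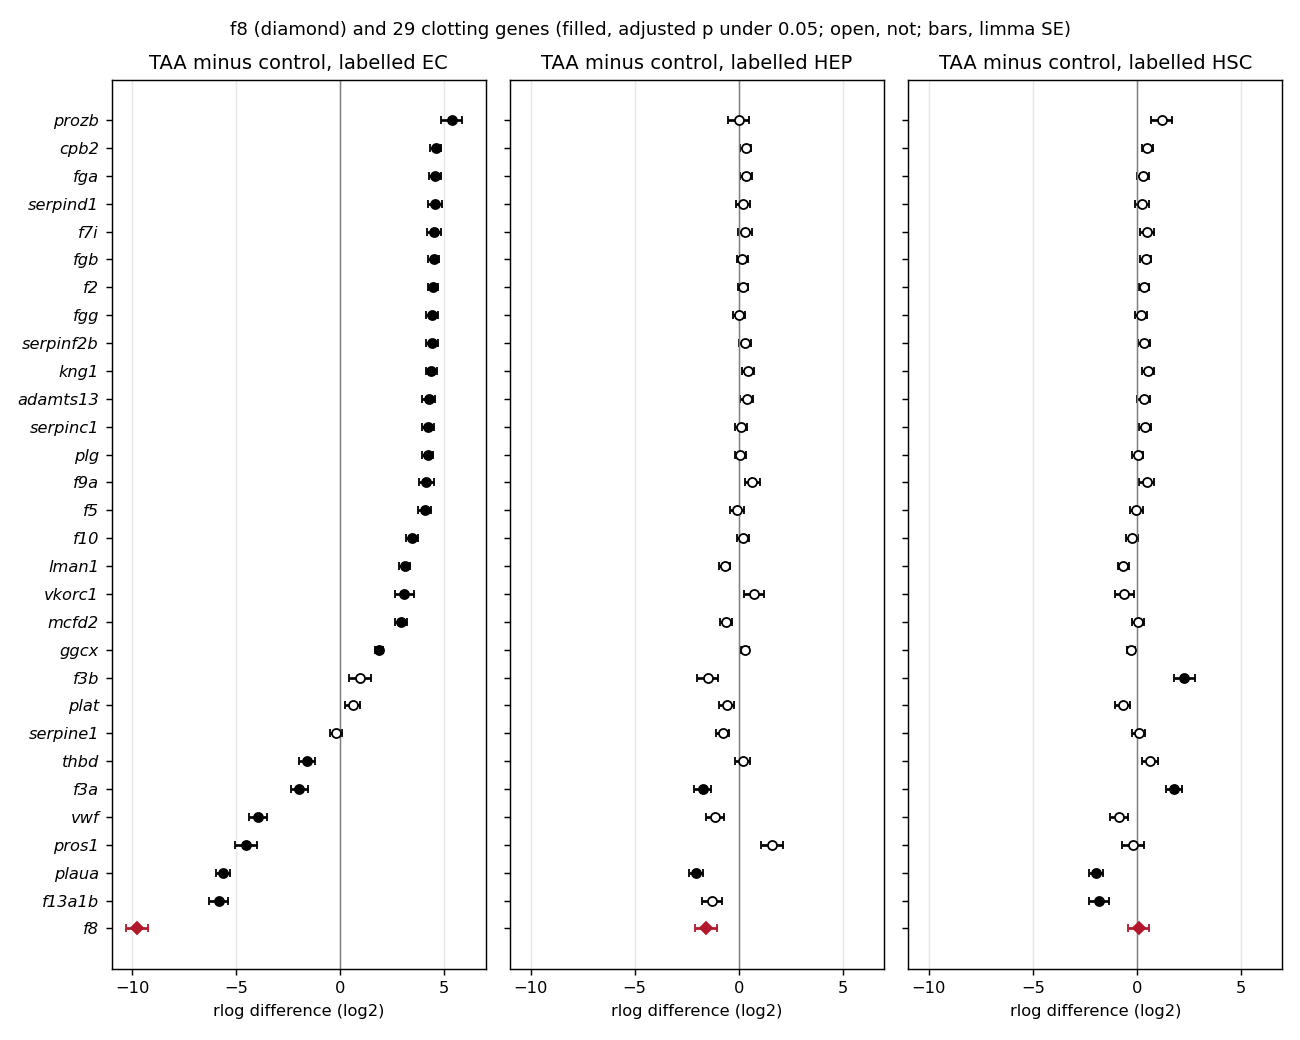
TAA minus control difference of mean regularized log2 values (x axis) for f8 and 29 clotting genes (y axis, ordered by the difference in the libraries labelled EC), with limma SE bars. In the libraries labelled EC TAA 20 clotting genes are called higher and 6 lower, with f8 below them all at -9.78, and in HEPs and HSCs most differences lie near 0.

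In control fish, 21 of the 29 clotting genes were called lower and 6 higher in ECs than in the mean of HEPs and HSCs, where 19.8% and 30.2% of all genes were called. The median of the list was -3.13, against 0.25 over all genes, while f8 stood at 7.37.

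Adhesion genes went mostly the way of sele. Of 17 matched genes, 13 were called lower and 2 higher in the libraries labelled EC TAA than in EC control libraries, where 31.5% and 19.7% of all genes were called, with a median difference of -6.49 against -0.25 over all genes. The 4 largest falls were those of cdh5, the cadherin of endothelial junctions (-9.59 ± 0.43), the junction gene pecam1 (-7.80 ± 0.48) and the chemokine receptor genes ackr3b (-7.60 ± 0.52) and cxcr4b (-7.53 ± 0.37). cdh5, pecam1 and cldn5b are also endothelial markers of the list used above, and itgb2 is a leukocyte marker. The adhesion counts are thus not separate from those markers. The 2 rises were f11r.2, a junction adhesion molecule gene (2.57 ± 0.45, adjusted p = 6.6e-05), and vcam1b, whose product binds leukocyte integrins (1.53 ± 0.28, adjusted p = 9.9e-05). selplg, the gene of the selectin ligand on leukocytes, averaged 1.73 ± 0.66 in the libraries labelled EC TAA and 5.91 ± 0.34 in EC control libraries, so that it fell by 4.19 on the log2 scale (adjusted p = 1.6e-07). In HEPs selplg also fell, to 2.05 ± 0.86 in TAA libraries against 5.11 ± 0.32 in control libraries (SD, n = 3 each, adjusted p = 0.00041), while sele fell there by 1.66. In HSCs its difference was -1.02 ± 0.46 (adjusted p = 0.18). selp, glg1a and glg1b were not matched. Of the 17 genes, 6 were called lower and 1 higher in HEPs, where 5.27% and 2.13% of all genes were called, and 3 lower and 2 higher in HSCs, where 3.94% and 4.26% were. Whichever HEP replicate was left out, 0 were called higher in HEPs, and with only the HSC libraries fitted 1 was called lower and 1 higher in HSCs. Leukocyte markers had 6 of 7 genes called lower in HEPs and 6 of 7 in HSCs, and their part in the fall of selplg was not tested. In control fish 13 of the 17 adhesion genes were called higher and 2 lower in ECs than in the mean of HEPs and HSCs, where 30.2% and 19.8% of all genes were called, with a median of 2.74 against 0.25 over all genes. All 7 leukocyte markers, with a median of 2.62, and all 16 endothelial markers, with a median of 6.33, were also called higher in that contrast. Their part in the adhesion counts was not tested.

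Of the amine oxidases other than aoc2, 5 of 13 were matched, and aoc1 was not among them. In the libraries labelled EC TAA 4 were called lower and 1 higher than in EC control libraries, where 31.5% and 19.7% of all genes were called. The lysyl oxidase gene loxl1, whose family crosslinks collagen and elastin, differed by -7.40 ± 0.50 (adjusted p = 2.4e-10), and loxl2a by -3.02 ± 0.61 (adjusted p = 0.00034). The polyamine oxidase gene paox1 differed by -5.88 ± 0.47, the spermine oxidase gene smox by -4.30 ± 0.49, and mao, the monoamine oxidase gene, was higher by 2.12 ± 0.47 (adjusted p = 0.00081). The endothelial, leukocyte and hepatocyte marker levels given above also differed between these libraries. Their part in the differences of the amine oxidases was not tested. In HEPs 1 of the 5 was called, where 5.27% of all genes were called lower. It was loxl2a, which fell to 2.98 ± 0.44 in TAA libraries against 8.09 ± 0.43 in control libraries (SD, n = 3 each, adjusted p = 6.8e-05). In HSCs none of the 5 was called, where 4.26% of all genes were called higher and 3.94% lower. The difference of loxl2a in HSCs was 1.22 ± 0.61 (adjusted p = 0.24) and that of mao 0.75 ± 0.47 (adjusted p = 0.34). In control fish 4 of the 5 were called higher in ECs than in the mean of HEPs and HSCs and none lower, where 30.2% and 19.8% of all genes were called, with a median of 2.71 against 0.25 over all genes.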

How the data were processed

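Per the paper and the labels, the authors trimmed reads (cutadapt 1.18), dropped ribosomal reads (rRNAdust), mapped what remained to GRCz11 (STAR 2.6) and applied the rlog of DESeq2. The deposited table holds the resulting log2 values of 18336 genes in 27 libraries. The counting tool, the annotation release and the gene filter are not given in the sources used here, and depth is unknown.

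No value was filtered or rescaled. Groups were compared with limma 3.58.1 in R 4.3.3 (lmFit, contrasts.fit, eBayes with trend=TRUE), with Benjamini-Hochberg adjustment over all genes at 0.05. TAA contrasts used the 18 reporter-positive libraries, contrasts of control cell types 9 of these, and contrasts with reporter-negative cells the 18 control libraries. Correlations were computed in Python 3.11.15 with scipy 1.17.1. The fit was tested on simulated data. Same-numbered libraries deviated together between positive and negative cells of the mCherry line (correlation 0.134 to 0.186) and of the dsRed line (0.114 to 0.157). The block by replicate number changed no call there. It gave same-numbered libraries of all 3 lines a shared effect, so the pairing within a line was not modelled.

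The members and lists were chosen with earlier results of these data known. The genes named were the members, for each the 5 with the highest Pearson correlation, up to 4 called genes per direction of the coagulation, adhesion and amine oxidase lists by EC change, list genes tied directly to a member, and the reporter drivers. Symbols came from the study's table and a gene name table. Alternatives were fits restricted to the compared libraries or extended to all 27, no variance trend, a mean rlog of at least 3, median centring, quantile normalization, the replicate block and leaving out each replicate. No sequences were used.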

Additional observations from a re-analysis of the deposited data

Results flagged for a closer look

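The response of aoc2 to TAA was 1.95 larger in HSCs than in HEPs on the log2 scale (SE 0.44, limma interaction, adjusted p = 0.018). aoc2 was higher in all 3 HSC TAA libraries than in any HSC control library, as was the case for 12.7% of all genes. The result was drawn out because the difference between the cell types itself passed the test. With the reporter-negative libraries added to the fit, the adjusted p was 0.50, and it was 0.054 without HEP control replicate 2, 0.053 without HEP TAA replicate 3 and 0.058 without HSC TAA replicate 2. The stellate marker mean was 3.65 to 4.27 in HSC TAA libraries and 1.13 to 2.39 in HSC control libraries, which overlapped HEP control libraries at 1.32 to 1.52. The part of these markers in the aoc2 result was not tested.

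The change of aoc2 in the libraries labelled EC and its change in HSCs had opposite signs, and they differed by -11.41 on the log2 scale. TAA and control libraries did not overlap in either, as was the case for 36.6% of all genes in the lower direction in the libraries labelled EC and for 12.7% in the higher direction in HSCs. This difference was not tested, and it rests on the libraries labelled EC TAA, whose endothelial markers were near 0.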

How the results depend on the processing

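The sign of a member's difference turned in 10 values with a replicate left out and in 4 others, all of them for f8 with TAA in HSCs or for EGFP-negative minus mCherry-negative cells, and no difference that turned was called. The cause of the changes was not tested unless stated. Centring libraries on their median gave differences of TAA minus control between the libraries labelled EC of -8.515 for sele, -9.371 for aoc2 and -9.201 for f8, and of EC minus the mean of HEPs and HSCs in control fish of 6.629 for sele and 5.929 for aoc2. Quantile normalization gave -9.495 for sele, -11.738 for aoc2 and -10.618 for f8 in the first of these contrasts, 7.951, 8.455 and 8.589 in the second, 7.147 for aoc2 in mCherry-positive minus mCherry-negative cells and -0.002 for f8 with TAA in HSCs. For f8, EGFP-negative minus mCherry-negative was 0.047 after centring and 0.263 after quantile normalization, against -0.12 as deposited.

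With only the libraries compared in the fit, sele in HEPs kept its difference of -1.661 and lost its call (adjusted p = 0.078), and the dsRed-positive minus dsRed-negative differences of -3.19 for sele, -2.655 for aoc2 and -3.214 for f8 gained theirs. The direction of these dsRed differences follows in part from the choice of the members. With all 27 libraries in the fit, the calls of sele in HEPs (-1.661), of aoc2 in HSCs (1.467) and of the aoc2 difference in response (1.953) were lost (adjusted p = 0.56, 0.31 and 0.50). The replicate number as a block called f8 with TAA in HEPs (-1.57, adjusted p = 0.039) and f8 in HEPs against HSCs in control fish (1.921, adjusted p = 0.045), where same-numbered libraries correlated at -0.043 to 0.005 and at -0.018 to -0.004 and thus share only a number. It changed no other call of a member. Of the amine oxidases, 1 was called lower in control ECs under the block and after centring, against 0 without. Without EGFP-negative replicate 3 and mCherry-negative replicate 1 together, dsRed-negative minus mCherry-negative was 2.534 for sele, 2.929 for aoc2 and 3.281 for f8, all called, and EGFP-negative minus mCherry-negative was -1.043 for sele. That choice takes out the highest mCherry-negative library of each gene, so these calls are no separate support.

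With 1 replicate at a time left out, the range was -1.971 to -1.373 for sele in HEPs, -0.453 to 0.907 for f8 in HSCs, 1.628 to 2.311 for the aoc2 difference in response and 1.117 to 2.476 for that of f8. For HEP minus HSC in control fish it gave 0.602 to 1.263 for aoc2 and 1.385 to 2.745 for f8. For EGFP-negative minus mCherry-negative it gave -2.089 to 2.077 for sele, -0.782 to 1.545 for aoc2 and -1.888 to 0.987 for f8. In control ECs it gave 1 to 3 adhesion genes and 0 to 1 amine oxidases called lower. The genes most like a member shared 1 of 5 for sele, 1 of 5 for aoc2 and 4 of 5 for f8 with the Spearman ranking, and 0, 3 and 1 of 5 with the ranking over the 18 reporter-positive libraries. Counts of called list genes in HEPs and HSCs, between 0 and 6 at first, moved by up to 3, which in some cases was all of them: with only the libraries compared, coagulation genes higher in HSCs were 0 against 2 and adhesion genes lower in HSCs 1 against 3. With all 27 libraries, coagulation genes lower in HEPs and in HSCs were 0 against 2 each, adhesion genes lower 3 against 6 in HEPs and 1 against 3 in HSCs, and adhesion genes higher 0 against 1 in HEPs and 0 against 2 in HSCs. Adhesion genes higher in HEPs were 0 with any HEP replicate left out, and those higher in HSCs 0 to 2 with any HSC replicate left out. The depth of the libraries is unknown, so no limit from counting can be given.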
